A study of Homo sapiens with 12 samples.

Results

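The ERBB receptor genes EGFR, ERBB2 and ERBB3, 5 genes for ligands of these receptors (AREG, EREG, HBEGF, TGFA and BTC) and MET, the gene of the hepatocyte growth factor receptor, were followed through a knockdown of GOT1. These 9 genes were taken by name from deposited tables of 58721 genes, and all 9 were found. The cells were Pa-Tu-8902 and MIA PaCa-2, established human pancreatic ductal adenocarcinoma (PDA) lines, with a GOT1 hairpin switched on by doxycycline (dox), called iDox-shGOT1. GOT1 is the cytosolic aspartate aminotransferase of the malate-aspartate shuttle. Poly(A) RNA was sequenced from 4 groups of 3 libraries: each line without dox, and each line after 5 days in dox, for which the sample labels give 1 µM/mL and the methods of the study 1 µg/mL. Untreated cells carry the hairpin too, and no dox-treated line without it was analysed here, so a response to the drug and a response to the knockdown cannot be told apart. The sources used here do not give which GOT1 hairpin the sequenced cells held, or whether the 3 libraries of a group came from separate cultures. If they did not, the p-values measure technical spread.

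ERBB receptors are tyrosine kinases of the cell surface that pair with each other when a ligand of the EGF family binds. EGFR binds every one of the ligands followed here, ERBB2 binds none and serves as a partner, and ERBB3 has little kinase activity and takes up neuregulins. The ligands are made as membrane proteins and are cut free by ADAM proteases, and the signal passes on through adaptors such as GRB2, SHC1 and SOS1. MET uses many of the same adaptors, with hepatocyte growth factor as its ligand.

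What the 5 ligands share is the EGF-like module, the part that docks onto the receptor. Its coding DNA is shown for the transcript that took the largest share of each ligand gene in these cells, from the first to the last of the 6 cysteines, 5′ to 3′, with the cysteine codons in capitals (GENCODE transcripts, GRCh38).
AREG: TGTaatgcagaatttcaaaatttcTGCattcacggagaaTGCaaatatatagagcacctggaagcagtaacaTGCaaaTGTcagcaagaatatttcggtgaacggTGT
EREG: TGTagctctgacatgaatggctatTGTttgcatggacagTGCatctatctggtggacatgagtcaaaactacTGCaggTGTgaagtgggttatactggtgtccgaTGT
HBEGF: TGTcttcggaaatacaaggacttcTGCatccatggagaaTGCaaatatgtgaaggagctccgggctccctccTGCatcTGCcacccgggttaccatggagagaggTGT
TGFA: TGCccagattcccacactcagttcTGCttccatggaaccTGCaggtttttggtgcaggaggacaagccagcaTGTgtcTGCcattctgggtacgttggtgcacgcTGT
BTC: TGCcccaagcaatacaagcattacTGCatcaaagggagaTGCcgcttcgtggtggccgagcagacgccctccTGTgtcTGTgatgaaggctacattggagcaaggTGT

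The module was 36 residues (108 bases) in all 5 ligands, with the same spacing of its cysteines. It was located by a pattern that fixed its cysteines and most of their spacing, so this likeness was largely set by the search. In each gene it lay in exons 3 and 4 of the transcript shown, and the intron cut it at the same place, after 77 bases. Between pairs of ligands, 46.3% (EREG and TGFA) to 63.0% (TGFA and BTC) of the 108 bases were identical. On chromosome 4 the module of AREG covered chr4:74449172-74449248 and chr4:74450380-74450410 on the plus strand, that of EREG chr4:74381061-74381137 and chr4:74382645-74382675 on the plus strand, and that of BTC chr4:74755859-74755935 and chr4:74750689-74750719 on the minus strand. The module of HBEGF covered chr5:140342635-140342711 and chr5:140335997-140336027, and that of TGFA chr2:70465616-70465692 and chr2:70456458-70456488, both on the minus strand.

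EREG, AREG and BTC stand in a row on chromosome 4, over 429 kb from the start of EREG to the end of BTC (chr4:74365145-74794523). The tables held 5 genes of this span, and these 3 were the protein-coding ones. The other members lie alone, with EGFR at chr7:55019017-55211628, MET at chr7:116672196-116798377, ERBB2 at chr17:39687914-39730426, ERBB3 at chr12:56076799-56103505, HBEGF at chr5:140332843-140346603 and TGFA at chr2:70447284-70554193.

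Libraries held 26226537 to 43406137 counts, so that 3 counts, the limit that a count of 0 allows, came to 0.0691 to 0.114 CPM. Such limits cover counting error only. GOT1 fell by 4.64 (SE 0.09) on the log2 scale in Pa-Tu-8902 and by 4.76 (SE 0.11) in MIA PaCa-2, from 3956 to 4519 normalised counts to 146 to 192, and from 2075 to 2341 to 69.3 to 95.4. Epithelial and ductal markers reached a mean TPM of 1 for 8 of 8 genes in Pa-Tu-8902, and MIA PaCa-2 reached it for 5 of 8, since EPCAM, CDH1 and KRT7 stayed below 1. VIM, an intermediate filament of mesenchymal cells, lay at 2.54 to 10.5 TPM in Pa-Tu-8902 and at 3531 to 4218 in MIA PaCa-2. The other mesenchymal markers were split. Between the untreated lines ZEB1 was called lower in Pa-Tu-8902 (log2 fold change -4.39). CDH2 was called higher there (7.16), with 57, 62 and 74 counts against 1, 0 and 0 in MIA PaCa-2. Of the markers of other cell types, CD68 among 3 leukocyte genes and COL1A1 (Pa-Tu-8902) or COL1A2 (MIA PaCa-2) among 4 fibroblast genes reached 1 TPM, and none of 2 endothelial and 4 acinar or islet genes did. Several markers moved with dox. In Pa-Tu-8902 CDH1 (log2 fold change 0.86) and MUC1 (0.80) were called higher and SOX9 (-0.69) and CD68 (-0.71) lower, and KRT19 (-1.66) was called lower in MIA PaCa-2. Summed fibroblast markers went from 3.82 to 6.38 TPM to 18 to 21.6 in Pa-Tu-8902 and from 192 to 248 to 340 to 398 in MIA PaCa-2, with COL1A1 (1.87) and PDGFRB (1.73) called in Pa-Tu-8902 and COL1A2 (0.70) in MIA PaCa-2. The part of these markers in the results below was not tested. In bulk RNA, fewer cells of a type and less RNA per cell cannot be told apart.

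The untreated lines were compared to show which receptors and ligands each line held before GOT1 knockdown. TPM, a level per transcript length, orders genes within a library. In untreated Pa-Tu-8902 the highest member was MET (mean 87.3 TPM), which overlapped AREG (85.7), and they were followed by TGFA (73.7), HBEGF (56), EGFR (45.6), ERBB2 (37.9), ERBB3 (21), BTC (3.32) and EREG (0.18). EGFR and ERBB2 overlapped as well, and every other neighbour in this order was separated in all libraries. Untreated MIA PaCa-2 had another order, with EREG (57.6) and AREG (48.9) at the top, then ERBB2 (39.9), EGFR (16.3), MET (6.59), BTC (6.55), ERBB3 (2.87), HBEGF (2.1) and TGFA (0.06). Here EREG overlapped AREG, MET overlapped BTC, and ERBB3 overlapped HBEGF.

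**Figure D1:**
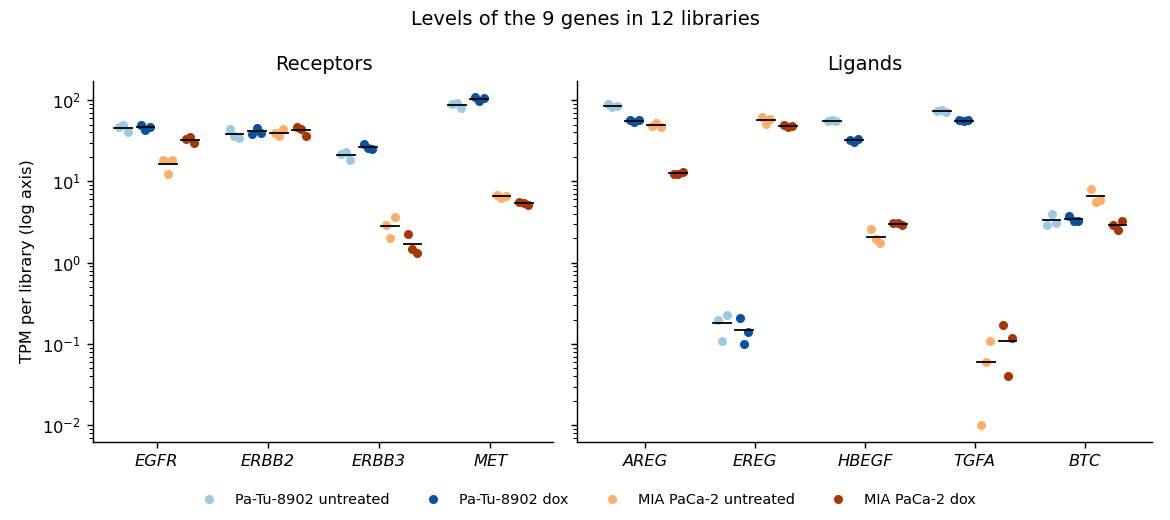
Levels of the 4 receptor genes (left) and the 5 ligand genes (right) in TPM on a log axis, with 1 point for each of the 12 libraries and a line at the mean of each group of 3. ERBB2 lay at 34.1 to 47.2 TPM in all 4 groups, whereas EREG was near 0.1 to 0.23 TPM in Pa-Tu-8902 and TGFA at 0.01 to 0.17 in MIA PaCa-2.

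Counts were tested with edgeR's quasi-likelihood test, and a gene was called at a Benjamini-Hochberg adjusted p below 0.01, over all genes tested, with a fold change of at least 1.5. Between the untreated lines 6 of the 9 members were called higher in Pa-Tu-8902, where 28.9% of 15608 genes were, and 2 were called lower, where 29.3% were. A normalised count is the count of a gene scaled to the mean effective size (TMM) of the libraries compared. TGFA, a ligand of EGFR, had 5684, 5836 and 5994 normalised counts in the untreated Pa-Tu-8902 libraries and 0.955, 6.18 and 7 in MIA PaCa-2 (log2 fold change 10.26, SE 0.17, adjusted p = 2e-14). EREG, which activates EGFR and ERBB4, ran the other way, with 20.4, 11.6 and 24.6 in Pa-Tu-8902 against 6423, 5733 and 5933 in MIA PaCa-2 (log2 fold change -8.34, SE 0.15, adjusted p = 2.45e-14). Each of these ligands was low in 1 line, at 1 to 7 counts per library for TGFA and 13 to 24 for EREG, and abundant in the other, with wide gaps between the groups. At such counts, counting error alone is larger than the standard errors printed for both fold changes.

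HBEGF, the heparin-binding ligand, had 2816, 2884 and 2907 normalised counts in Pa-Tu-8902 and 132, 112 and 89 in MIA PaCa-2 (log2 fold change 4.69, SE 0.11, adjusted p = 3.63e-13). MET had 12266, 12383 and 11926 against 752, 718 and 725 (4.06, SE 0.07, adjusted p = 2.9e-14). ERBB3 had 1640, 1593 and 1584 against 194, 175 and 198 (3.08, SE 0.09, adjusted p = 1.57e-12). In all 3 genes every Pa-Tu-8902 library lay above every MIA PaCa-2 library. The differences of EGFR (log2 fold change 1.41, SE 0.09) and of AREG (0.76, SE 0.09) were smaller and also higher in Pa-Tu-8902, and BTC was lower there (-0.85, SE 0.12). ERBB2 had 3221, 3083 and 3185 normalised counts in Pa-Tu-8902 and 3443, 3183 and 3573 in MIA PaCa-2, with overlapping groups, and did not pass the test (-0.10, SE 0.07, adjusted p = 0.178).

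In Pa-Tu-8902 the members called with dox were a pair of ligands, both lower, and no receptor was called. AREG and HBEGF were called lower, 2 of 9 members where 7.12% of 14949 genes were called lower, and 0 members were called higher by edgeR, where 9.22% of genes were. DESeq2 also called 0 higher, and 2 members were higher at an unadjusted p under 0.05. HBEGF had 3021, 3101 and 3194 normalised counts without dox and 1665, 1667 and 1740 with it, a fall of 45.6% (log2 fold change -0.88, SE 0.05, adjusted p = 2.23e-07). AREG (amphiregulin) had 2290, 2066 and 2271 without dox and 1361, 1353 and 1350 with it (-0.70, SE 0.05, adjusted p = 2.39e-06). The libraries within each group lay close together, and the groups stood apart for both ligands.

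TGFA, the most abundant of the other ligands in this line, had 6098, 6275 and 6586 normalised counts without dox and 4489, 4544 and 4660 with it. Its groups did not overlap and its adjusted p was 1.65e-05, but its fold of 1.38 (log2 fold change -0.47, SE 0.05) was under the limit of 1.5. EREG rested on 13 to 24 counts per library without dox and 14 to 17 with it, too few to show a difference of its size (-0.53, SE 0.37, adjusted p = 0.259). BTC (betacellulin) had 190, 196 and 201 normalised counts without dox and 209, 173 and 179 with it, with overlapping groups (-0.07, SE 0.11, adjusted p = 0.66). All 5 ligands had a log2 fold change below 0 (median -0.53, against 0.0014 over all genes tested). That median is the value of EREG, and the groups of EREG and BTC overlapped. The value of BTC was 0.01 without dox replicate 2. The fall therefore rests on AREG, HBEGF and TGFA.

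Among the receptors of Pa-Tu-8902, ERBB3 had 1759, 1713 and 1740 normalised counts without dox and 2130, 2081 and 2122 with it, 21.5% more (log2 fold change 0.28, SE 0.05, adjusted p = 0.000448). MET had 13160, 13313 and 13104 without dox and 15500, 14553 and 15673 with it, 15.5% more (0.21, SE 0.05, adjusted p = 0.0041). In both genes the groups were separated, and neither reached a fold of 1.5. Under the alternatives run, the adjusted p reached 0.0135 for ERBB3 and 0.0226 for MET, above the threshold of 0.01. EGFR (-0.01, SE 0.05, adjusted p = 0.866) and ERBB2 (0.04, SE 0.05, adjusted p = 0.556) had overlapping groups.

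In MIA PaCa-2 both receptors and ligands were called. EGFR was called higher, 1 of the 8 members tested where 4.36% of 14589 genes were, and AREG, BTC and ERBB3 were called lower, 3 of 8 where 7.64% were. TGFA, with 1 to 8 counts per library, was not tested. AREG had 1100, 1389 and 1071 normalised counts without dox and 284, 282 and 306 with it, a fall of 75.4% (log2 fold change -2.02, SE 0.11, adjusted p = 1.78e-07). BTC had 348, 319 and 291 without dox and 120, 117 and 133 with it (-1.37, SE 0.12, adjusted p = 4.79e-06). No dox-treated library reached the lowest untreated one in either gene.

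EGFR itself moved the other way, from 3721, 3054 and 3887 normalised counts to 7104, 7320 and 6581, a gain of 96.9% (log2 fold change 0.98, SE 0.09, adjusted p = 7.72e-06). ERBB3 had 188, 174 and 195 without dox and 95.7, 101 and 106 with it (-0.88, SE 0.12, adjusted p = 0.000218). The groups of both genes were apart in normalised counts. In TPM those of ERBB3 overlapped, at 2.93, 2.03 and 3.65 against 2.27, 1.46 and 1.31, and with effective lengths as offsets its call was lost (-0.85, SE 0.23, adjusted p = 0.0196). EREG, the most abundant ligand of this line, had 6240, 5713 and 5846 normalised counts without dox and 4793, 4595 and 4885 with it. Its groups did not overlap and its adjusted p was 0.00153, but its fold of 1.25 (-0.32, SE 0.06) was under the limit. Under the alternatives run, the adjusted p of EREG reached 0.0132. HBEGF was at 128, 112 and 87.7 without dox and at 155, 151 and 145 with it (0.46, SE 0.16, adjusted p = 0.0334), and MET at 731, 715 and 715 and at 630, 610 and 617 (-0.22, SE 0.07, adjusted p = 0.0241). Neither passed the threshold, although the libraries of the groups did not overlap. ERBB2 had a log2 fold change of 0.05 (SE 0.06, adjusted p = 0.565).

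**Figure D2:**
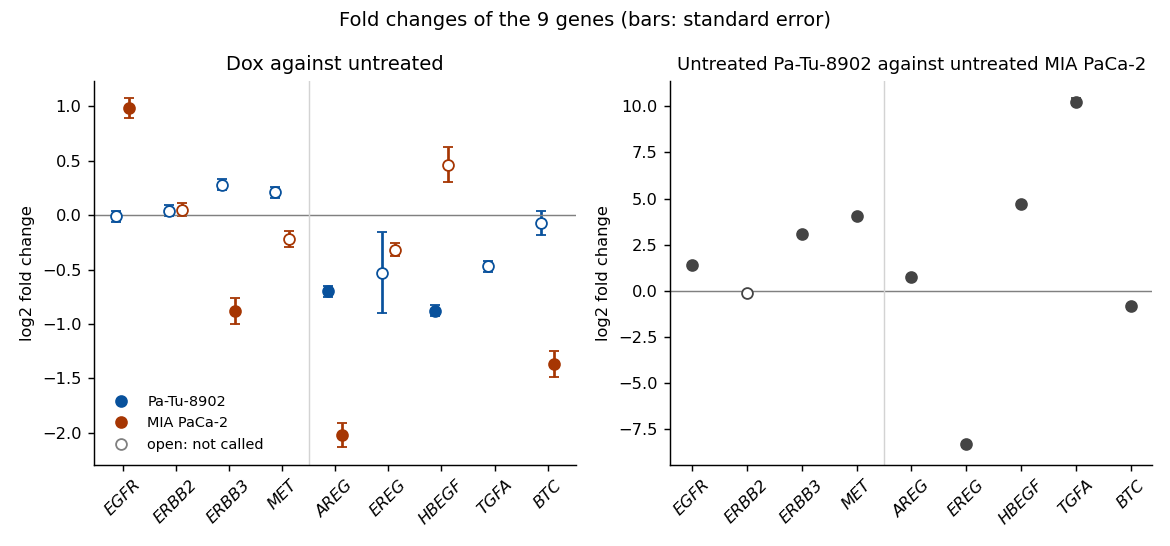
Log2 fold changes with their standard errors, on the left for dox against untreated in each line and on the right for the untreated lines, where a positive value is higher in Pa-Tu-8902. Filled points were called. The bars of TGFA and EREG on the right are too short, since each had few counts in 1 line. AREG was called lower with dox in both lines (-0.70 and -2.02), and EGFR was near 0 in Pa-Tu-8902 (-0.01) and higher in MIA PaCa-2 (0.98).

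The difference of the dox change between the lines was tested in a fit of all 12 libraries, as Pa-Tu-8902 minus MIA PaCa-2. It was called for 5 of 9 members, where 10.4% of 16544 genes were called in either direction. EGFR (-0.99, SE 0.11, adjusted p = 2.92e-06) and HBEGF (-1.33, SE 0.13, adjusted p = 1.23e-06) changed more upward, or less downward, in MIA PaCa-2. AREG (1.32, SE 0.13, adjusted p = 5.85e-07), BTC (1.3, SE 0.16, adjusted p = 1.19e-05) and ERBB3 (1.16, SE 0.10, adjusted p = 3.41e-07) did so in Pa-Tu-8902. AREG was therefore called lower in both lines, with the greater fall in MIA PaCa-2. MET passed the p threshold with a fold of 1.35, under the limit (0.43, SE 0.08, adjusted p = 0.000525). The difference for ERBB2 was -0.01 (SE 0.09), for EREG -0.20 (SE 0.28) and for TGFA -0.80 (SE 0.50), and none of these passed.

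Summed over the 5 ligands, TPM went from 222, 220 and 214 to 150, 142 and 151 in Pa-Tu-8902 and from 121, 110 and 114 to 67.6, 64.6 and 67.3 in MIA PaCa-2. Dox-treated libraries lay below the untreated ones in each line. In Pa-Tu-8902 the share of AREG overlapped, at 37.3% to 40.5% of ligand TPM without dox and 37.4% to 38.1% with it. TGFA went from 33.2% to 34.6% up to 37.6% to 38.5%, and HBEGF from 24.9% to 26.2% down to 21.7% to 22.3%. BTC went from 1.3% to 1.81% up to 2.18% to 2.53%. The groups of TGFA, HBEGF and BTC were apart in these shares. In MIA PaCa-2 the share of AREG went from 39.4% to 47.1% without dox to 18.3% to 19.4% with it, and that of EREG from 46.1% to 52% to 71.3% to 72.6%. EREG was thus the main ligand transcript of dox-treated MIA PaCa-2, though its mean level went from 57.6 TPM without dox to 47.9 with it. The share of TGFA in Pa-Tu-8902 likewise rose while its mean level went from 73.7 to 56.1 TPM.

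Receptor TPM, summed over EGFR, ERBB2, ERBB3 and MET, was 201, 200 and 174 without dox and 224, 212 and 220 with it in Pa-Tu-8902, where MET held 44.2% to 48.9% throughout. In MIA PaCa-2 the sum was 67.1, 56.4 and 73.4 without dox and 87.9, 86.5 and 72.1 with it, and the groups overlapped. ERBB2 was the main receptor transcript of that line, at 58.6% to 63.4% and then 49.9% to 53.7%, and EGFR went from 21.8% to 26.9% up to 37.4% to 41.1%. With dox, EGFR (mean 32.6 TPM) stood above AREG (12.6), the reverse of their order without it.

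**Figure D3:**
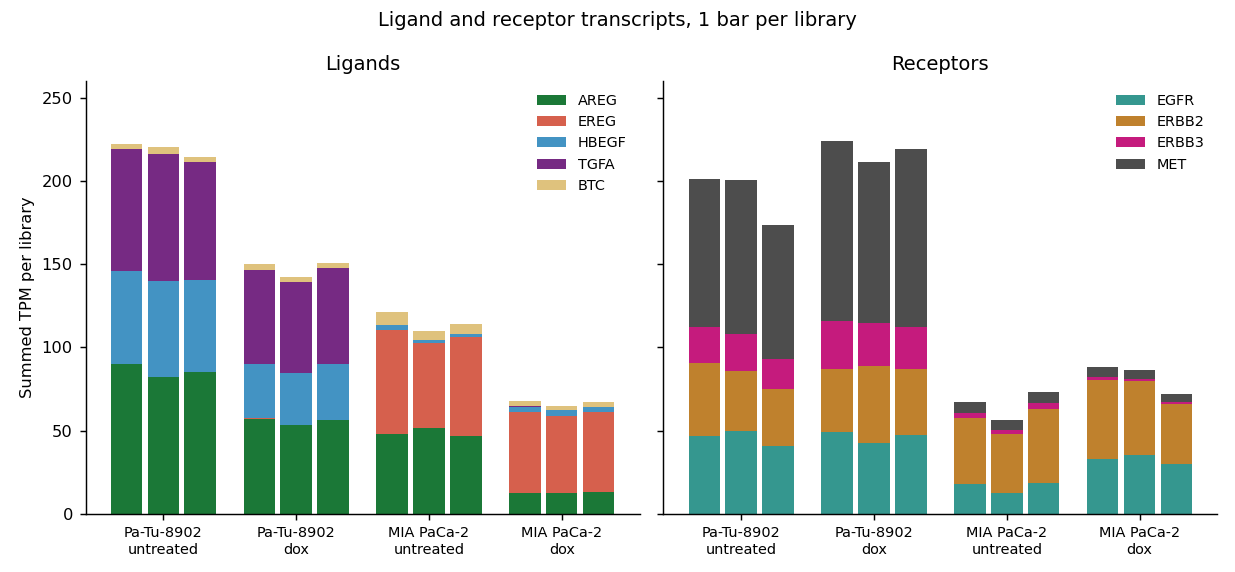
Summed TPM of the 5 ligands (left) and the 4 receptors (right), with 1 stacked bar for each library. Ligand bars are lower with dox in both lines (142 to 151 against 214 to 222 TPM in Pa-Tu-8902, 64.6 to 67.6 against 110 to 121 in MIA PaCa-2), and AREG shrinks most within the bars of MIA PaCa-2.

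The transcript tables showed whether a change of level came with a change of isoform. In 28 of the 36 combinations of a member and a group, 1 transcript took over 50% of the TPM of the gene on average, and the other 8 were those of ERBB2 and ERBB3. The 28 include TGFA in MIA PaCa-2 and EREG in Pa-Tu-8902, on 1 to 8 and 13 to 24 counts per library. In dox-treated MIA PaCa-2, TGFA-201 took 37.5%, 100% and 58.3% of TGFA. The level of ERBB3 was spread over several protein-coding transcripts and, in some libraries, retained-intron transcripts. In dox-treated MIA PaCa-2, ERBB3-205 took 32%, 0% and 0% and ERBB3-206 took 0%, 30.8% and 0%. ERBB3-205 also reached 14% in an untreated MIA PaCa-2 library and 12.6% in an untreated Pa-Tu-8902 library. These shares are estimates, since RSEM splits shared reads, and dox-treated MIA PaCa-2 had 87 to 122 ERBB3 counts per library. AREG-201 took 99.4% to 100% of AREG on average in every group, and EGFR-201 took 88.9% to 93.6% of EGFR, so that the changes of both genes were changes of these transcripts. BTC-201 took 75.4% ± 7.66 (SD, n = 3) of BTC in untreated MIA PaCa-2 and 65.6% ± 6.23 with dox, with overlapping ranges. MET-202, the main protein-coding transcript, held 90% ± 1.82 of MET in untreated Pa-Tu-8902 and 67.6% ± 3.75 in untreated MIA PaCa-2, where MET-207, a transcript without an annotated coding sequence, took 22.1% ± 5.03 against 1.07% ± 0.329. The mean level of MET-207 was 1.47 TPM in untreated MIA PaCa-2 and 0.943 in untreated Pa-Tu-8902. That of MET-202 was 4.46 against 78.5, so the share of MET-207 differed mainly through MET-202. With dox, MET-207 took 11.6% ± 6.7 in MIA PaCa-2. TGFA-203 took 15.2% ± 1.82 of TGFA in untreated Pa-Tu-8902 and 18.6% ± 1.25 with dox, and TGFA-201 most of the rest.

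The 3 ligand genes in a row on chromosome 4 had log2 fold changes of unequal size. In MIA PaCa-2 AREG (-2.02) and BTC (-1.37) were called. EREG, 56.4 kb from AREG, was at -0.32 (adjusted p = 0.00153), under the fold limit. All 3 had an adjusted p below 0.01, as did 3973 of 14589 genes tested. In Pa-Tu-8902 AREG (-0.70) was the called gene of the 3.

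Promoters (RefSeq, GRCh38.p14) were held for 8 of the 9 members, 10 promoters in all, and the 250 bases before each start were searched on both strands for TGACGTCA, the cAMP response element, and for TGANTCA, the AP-1 element. Of the 10 promoters, that of AREG held TGACGTCA, a word found in 1.65% of 35116 promoters. Those of HBEGF (called lower in Pa-Tu-8902) and BTC (called lower in MIA PaCa-2) did not. The stretch of the AREG promoter at chr4:74445035-74445114 (plus strand) is printed with the element in capitals, 65 to 58 bases before the start.
AREG promoter: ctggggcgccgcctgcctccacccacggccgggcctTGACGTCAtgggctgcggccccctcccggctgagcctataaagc

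TGANTCA was in that of ERBB2 and in 1 of the 2 EGFR promoters, the one inside the gene at chr7:55109589-55109888 and not the one at the gene's start, against 6.57% of all promoters. These are matches of letters in a window, and no binding was measured.

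Of the genes with a mean of at least 5 TPM in both lines (8596 or 8597 compared for each member), those whose log2(TPM + 1) followed a called member most closely over the 12 libraries, after each line's mean was removed, were listed for each. AREG was followed by S100A2 (Pearson's r = 0.995), a calcium-binding protein of epithelia, and by C12orf75 (0.994). EGFR was followed by MAP4K4 (0.987), a kinase, and the transcription factor ELF4 (0.985). HBEGF was followed by the homeobox gene BARX2 (0.979) and PAK1IP1 (0.969), ERBB3 by SH3GLB2 (0.978) and GOLGA2P7 (0.964), and BTC by PDIA3 (0.955), a chaperone of the endoplasmic reticulum, and the transcription factor TEF (0.954). These are descriptions, since the libraries share their line and treatment and genes with a like step between groups score high.

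Beyond the 9 members, 48 genes for other receptors, ligands, proteases, adaptors and inhibitors of the pathway were listed. Most other ligands had few counts. HGF, the ligand of MET, and NRG3 had 0 counts in all 12 libraries, EPGN and NRG1 at most 2 in any, NRG4 at most 13 and EGF 2 to 17. MST1, the ligand of MST1R, had 14 to 21 counts in Pa-Tu-8902, and MIA PaCa-2 had 42 to 83, at mean levels of 2.39 TPM without dox and 2.94 with it. ERBB4, the remaining receptor of the family, had at most 3 counts.

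In Pa-Tu-8902, 38 of the 48 genes were tested, and 3 were called higher and 4 lower, where 9.22% and 7.12% of all genes were. PTPRJ, a receptor-type phosphatase that acts on EGFR and MET, rose by 0.97 (SE 0.05), the adaptor GAB1 by 0.87 (SE 0.13) and ADAM10, which sheds BTC and EGF, by 0.75 (SE 0.04) on the log2 scale. Those called lower were the EGFR substrate EPS8 (-1.0, SE 0.06), SOCS5, which helps to degrade EGFR (-0.91, SE 0.10), the exchange factor SOS1 (-0.70, SE 0.08) and MST1R (-0.59, SE 0.07), the MET relative RON. The call of MST1R sat at the limit of 1.5-fold and was lost when any of 4 libraries was left out (untreated 1 or 2, dox 2 or 3; -0.58 to -0.52) and under 4 other settings, DESeq2 among them (-0.58 to -0.44), and that of SOS1 was lost with effective lengths as offsets (adjusted p = 0.0679). ADAM17, the main protease that sheds AREG, HBEGF and TGFA, had a log2 fold change of 0.35 (SE 0.04, adjusted p = 7.89e-05), under the fold limit.

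In MIA PaCa-2, 36 of the 48 were tested, and 3 were called higher and 5 lower, where 4.36% and 7.64% of all genes were. PTPRJ rose by 1.27 (SE 0.07), EPS8 by 1.05 (SE 0.11) and LRIG2 by 0.59 (SE 0.08) on the log2 scale. SOCS5 (-1.05, SE 0.09) and the adaptor SHC1 (-0.70, SE 0.07) were called lower, and so was NRG2 (-2.87, SE 0.67), on 31, 22 and 10 counts without dox and 2, 0 and 6 with it. ERRFI1, the EGFR inhibitor MIG6 (-0.62, SE 0.06), and SOS1 (-0.62, SE 0.12) were the other 2. ADAM17 had a log2 fold change of 0.45 (SE 0.07, adjusted p = 0.000571), again under the limit. The call of LRIG2 was lost without untreated replicate 2 (0.50), without dox replicate 2 or 3 (0.58), or with no filter on low counts (0.58). That of SOS1 was lost without untreated replicate 1 or 3 or dox replicate 3 (adjusted p = 0.0102, 0.00528 and 0.0122, the second lost by its fold). That of NRG2 was lost without dox replicate 1 or 2 (adjusted p = 0.0195 and 0.0155) or with effective lengths as offsets (adjusted p = 0.0164).

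PTPRJ was called higher and SOCS5 and SOS1 lower in both lines, and EPS8 was called in opposite directions. The share of all genes called in both lines was not counted, so this overlap has no background beside it. The median log2 fold change of the listed genes tested was 0.07 in Pa-Tu-8902 (0.0014 over all genes), and MIA PaCa-2 gave 0.12 (-0.0089 over all genes). The difference between the lines was called for 6 of 40 genes, where 10.4% of all genes were. It was higher in Pa-Tu-8902 for SHC1 (0.78, SE 0.09) and ERRFI1 (0.67, SE 0.08), and lower for EPS8 (-2.05, SE 0.11), GAB2 (-0.83, SE 0.15), the ubiquitin ligase CBL (-0.65, SE 0.15) and MST1R (-2.50, SE 0.60). MST1R had 1 to 10 counts per library in MIA PaCa-2, and its difference was no longer called without MIA PaCa-2 untreated replicate 1 or 3 or dox replicate 1 (adjusted p = 0.0196, 0.0187 and 0.0451). That of GAB2 was lost with effective lengths as offsets (adjusted p = 0.0298). That of CBL was lost with effective lengths as offsets (-0.57) and without Pa-Tu-8902 untreated replicate 1 or 2 (-0.60 and -0.59), Pa-Tu-8902 dox replicate 2 (-0.58), MIA PaCa-2 untreated replicate 2 (-0.50) or MIA PaCa-2 dox replicate 1 or 2 (-0.59 and -0.62).

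**Figure D4:**
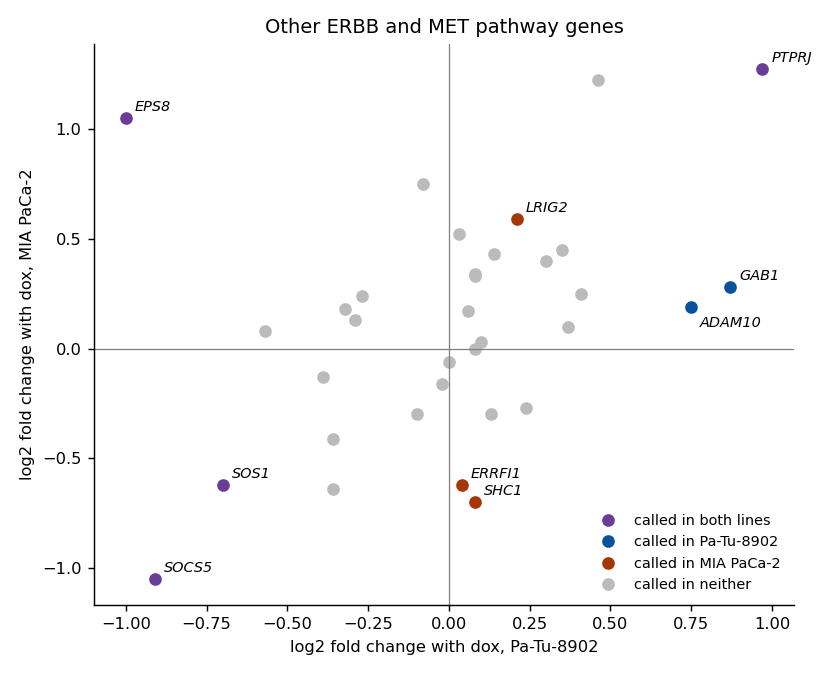
Log2 fold change with dox of the 34 listed pathway genes tested in both lines, Pa-Tu-8902 on the horizontal and MIA PaCa-2 on the vertical axis, with 1 point per gene. The 4 genes called in both lines are PTPRJ (0.97 and 1.27), SOCS5 (-0.91 and -1.05), SOS1 (-0.70 and -0.62) and EPS8 (-1.0 and 1.05). The share of all genes called in both lines was not counted.

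Between the untreated lines 25 of 40 pathway genes were called, 14 higher in Pa-Tu-8902 and 11 lower, where 28.9% and 29.3% of all genes were. The highest were CBLC, a CBL ubiquitin ligase of epithelia, with 912 to 1206 counts in Pa-Tu-8902 and 0 in every MIA PaCa-2 library, the membrane protease ST14 (matriptase; log2 fold change 11.93, SE 0.16) and its inhibitor SPINT1, with 4154 to 5404 counts against 1 or 2. Set against 3 counts in a MIA PaCa-2 library, CBLC was at least 335-fold and SPINT1 at least 1525-fold higher. ST14 had 4 to 10 counts per library in untreated MIA PaCa-2, so its standard error is too small. The lowest were HGFAC (-2.56, SE 0.52; 1 to 6 counts against 16 to 22), SHC1 (-2.0, SE 0.08) and NRG2 (-1.77, SE 0.47). The call of NRG2 was lost without any 1 of the Pa-Tu-8902 libraries (adjusted p = 0.023, 0.0213 and 0.0101) and with effective lengths as offsets (-1.29, adjusted p = 0.0429).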

How the data were processed

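Poly(A), strand-specific libraries of 12 samples were sequenced. Per the labels and the methods of the study, the authors trimmed reads with Trimmomatic 0.39 and ran RSEM 1.3.1 with STAR 2.5.2a on hg38 with a GENCODE annotation. The deposited values are expected counts per gene and transcript, unfiltered and not normalized (5.34% not whole), TPM as RSEM scaled them, and other values, RSEM's effective lengths. The deposited FPKM were not used here.

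Expected counts were rounded and tested with edgeR 4.0.16 (TMM, glmQLFit, glmQLFTest) in R 4.3.3, on genes that reached 10 counts in 3 or more of the libraries fitted, separately for each line, for the untreated lines, and over all 12 libraries for the difference between the lines. P-values were adjusted over all genes tested. Standard errors are the absolute log2 fold change over the square root of F. They can be too small where a group has few counts, as for TGFA, EREG and ST14 between the untreated lines. Alternatives included DESeq2 1.42.0. Each fit was run on simulated counts with few changed genes and a fixed dispersion. That does not check a fit where many genes differ, as between the untreated lines (9072 of 15608 genes called). Positions come from GENCODE release 44 (GRCh38).

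Named were the members, GOT1, up to 3 called pathway genes per direction and comparison, the 2 genes most like each called member, and markers. ADAM17, CBL (difference between the lines), the other ligands and ERBB4 were named after their values were seen. The members and lists were chosen with earlier results of these data known. The labels do not say whether replicate numbers pair libraries, and the main fits did not pair them. Correlations of same-numbered deviations were -0.0935 to 0.139, which cannot settle how the cultures were set up.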

Additional observations from a re-analysis of the deposited data

Results flagged for a closer look

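The change with dox differed between Pa-Tu-8902 and MIA PaCa-2, by the interaction contrast of edgeR's fit of all 12 libraries, for 5 members. The difference (Pa-Tu-8902 minus MIA PaCa-2, log2 scale) was -0.99 for EGFR, 1.16 for ERBB3, 1.32 for AREG, -1.33 for HBEGF and 1.3 for BTC. HBEGF was called lower in Pa-Tu-8902 and had a positive fold change in MIA PaCa-2 that was not called, and ERBB3 was called lower in MIA PaCa-2 and was higher in Pa-Tu-8902 by less than the fold limit. Among the other pathway genes named, the same contrast gave -2.50 for MST1R, 0.78 for SHC1, -0.83 for GAB2, -2.05 for EPS8, 0.67 for ERRFI1 and -0.65 for CBL. EPS8 was called in opposite directions in the 2 lines, and MST1R rested on 1 to 10 counts per library in MIA PaCa-2.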

How the results depend on the processing

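Of 35 fold changes of members over the 4 comparisons, 24 kept their direction and their side of the thresholds under every alternative run. The calls of AREG, HBEGF, EGFR and BTC with dox did so, and that of ERBB3 in MIA PaCa-2 was lost with effective lengths as offsets. Without a limit on the fold, the calls in Pa-Tu-8902 were 5 members, 19 pathway genes and 5692 of 14949 genes in all, in MIA PaCa-2 14 pathway genes and 3973 in all, and for the difference between the lines 10 pathway genes and 2799 in all. Values near 0 changed sign when single libraries were left out, EGFR (-0.05 to 0.03) and BTC (-0.13 to 0.01) in Pa-Tu-8902, ERBB2 between the untreated lines (-0.19 to 0.01), and ERBB2 (-0.03 to 0.05) and EREG (-0.48 to 0.07) in the difference between the lines. For ERBB2 that difference was also 0.01 with no filter, 0.02 with 10 counts in every library and 0.03 with effective lengths as offsets. None of these was called, and the cause was not tested. With a replicate block, 2, 4, 8 and 5 members were called in the 4 comparisons, as without it, and the baseline call of NRG2 was lost (adjusted p = 0.0121). The log2 fold change of GOT1 ran from -4.72 to -4.49 in Pa-Tu-8902 under the alternatives run, and MIA PaCa-2 gave -4.94 to -4.57. Neighbours in the order of levels were separated in 23 of 32 pairs by TPM and in 23 to 25 otherwise, and a transcript over 50% was found in 28 to 32 of 36 combinations. EREG in Pa-Tu-8902 and TGFA in MIA PaCa-2 are limited by depth.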
